A study of Mus musculus with 12 samples.

Results

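The genes described here are 7 components of the cell cycle engine, with roles from the start of the cycle to mitosis. They are the D-type cyclin genes Ccnd1 and Ccnd2, the mitotic cyclin genes Ccna2, Ccnb1 and Ccnb2, the mitotic kinase gene Cdk1 and the kinase-associated phosphatase gene Cdkn3. They were taken by name from the authors' deposited tables of genes listed as changed, which hold 2416 rows for neural progenitor cells (NPC) and 111 rows for mouse embryonic fibroblasts (MEF). All 7 are listed in NPC. In MEF 3 of the 7 are listed, Ccnb2, Cdk1 and Cdkn3, while Ccnd1, Ccnd2, Ccna2 and Ccnb1 are not.

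RNA came from 12 libraries in 4 groups of 3. NPC were cortical cells of E14.5 embryos grown as neurospheres with EGF and FGF and treated on day 4 of culture, and MEF were primary fibroblasts of the same embryonic stage at passage 1, grown to confluence. Every group carried the same genotype, Prmt5 F/FER on a mixed C57BL/6 X 129S1/SvlmJ background. The control groups received ethanol (EtOH) and the depleted groups 50 nM 4-hydroxytamoxifen (4-OHT) for 24 h, which removes Prmt5, the gene of an arginine methyltransferase. The sources used here do not give the recombinase or the promoter that drives it, nor how long after the treatment RNA was taken. No group combined 4-OHT with intact Prmt5, so the agent and the loss of the gene cannot be told apart. Prmt5 itself went from 33.4 to 4.92 RPKM in NPC and from 21.0 to 3.76 RPKM in MEF in the authors' deposited table. The tables give 1 RPKM value (reads scaled to transcript length and to the mapped reads of the library) for each arm of 3 libraries, so no spread between libraries can be given for any gene, and the depth is unknown. The label of the cells could not be checked, since the tables hold changed genes only: of 10 progenitor markers Hes5 alone is listed in NPC, and of 10 fibroblast markers 0 are listed in MEF.

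Cyclins are the regulatory subunits of the cyclin-dependent kinases, and each class has its own time in the cycle. D-type cyclins are made in response to growth factors, pair with CDK4 and CDK6 and start the phosphorylation of the retinoblastoma protein, so their genes follow mitogen signalling more than cycle phase. Cyclin A2 serves DNA replication and the approach to mitosis, and the B-type cyclins activate CDK1 for mitosis; their genes are silent in resting cells and peak late in the cycle. In the developing cortex cyclins D1 and D2 are the D-type cyclins of dividing progenitors.

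Late cell cycle genes are commonly driven through promoters that carry CCAAT boxes, bound by the factor NF-Y, and a cell cycle genes homology region (CHR), bound by MuvB complexes such as DREAM. The promoter table held 4 of the 7 genes, Ccnb1, Ccnb2, Cdk1 and Cdkn3. Their windows from 250 bases before to 50 bases after an annotated start are shown because these 4 genes were all listed as lower with 4-OHT in NPC. Capitals mark CCAAT and the CHR core TTTGAA on either strand, so that a box on the other strand reads ATTGG or TTCAAA. The sequences are from RefSeq, GRCm38.p6, 5′ to 3′ on the strand of the gene, at chr13:100786437-100786736 (minus strand) for Ccnb1, chr9:70421505-70421804 (minus strand) for Ccnb2, chr10:69352863-69353162 (minus strand) for Cdk1 and chr14:46760291-46760590 (plus strand) for Cdkn3.
Ccnb1: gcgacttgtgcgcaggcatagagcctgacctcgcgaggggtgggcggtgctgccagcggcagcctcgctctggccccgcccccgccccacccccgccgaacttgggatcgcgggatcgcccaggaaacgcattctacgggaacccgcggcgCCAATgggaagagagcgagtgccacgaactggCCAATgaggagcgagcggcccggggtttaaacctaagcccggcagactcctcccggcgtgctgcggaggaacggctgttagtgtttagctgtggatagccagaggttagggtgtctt
Ccnb2: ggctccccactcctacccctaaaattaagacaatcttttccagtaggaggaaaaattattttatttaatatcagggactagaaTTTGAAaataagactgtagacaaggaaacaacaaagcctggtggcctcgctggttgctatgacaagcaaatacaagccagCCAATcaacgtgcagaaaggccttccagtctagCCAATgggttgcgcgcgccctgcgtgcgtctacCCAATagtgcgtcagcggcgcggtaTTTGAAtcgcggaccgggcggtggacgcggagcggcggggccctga
Cdk1: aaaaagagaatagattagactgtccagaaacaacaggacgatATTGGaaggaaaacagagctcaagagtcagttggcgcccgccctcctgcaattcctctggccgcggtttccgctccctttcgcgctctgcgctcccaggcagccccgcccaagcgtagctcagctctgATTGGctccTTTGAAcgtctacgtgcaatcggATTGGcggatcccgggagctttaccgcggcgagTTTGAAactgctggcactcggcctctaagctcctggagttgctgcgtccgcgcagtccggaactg
Cdkn3: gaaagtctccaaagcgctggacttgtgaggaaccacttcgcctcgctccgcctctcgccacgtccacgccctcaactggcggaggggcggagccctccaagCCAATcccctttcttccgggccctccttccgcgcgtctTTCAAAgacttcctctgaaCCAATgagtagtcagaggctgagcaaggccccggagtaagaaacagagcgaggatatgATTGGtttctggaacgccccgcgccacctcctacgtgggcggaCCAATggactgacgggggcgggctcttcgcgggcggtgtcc

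Each of the 4 windows held at least 2 copies of CCAAT: 2 in Ccnb1, 3 in Ccnb2, 3 in Cdk1 and 4 in Cdkn3. At least 1 copy was found in 37.4% of all 32851 windows of the table and at least 2 copies in 11.7%. The copies of Ccnb2 began 87, 54 and 21 bases before the start, which is a regular step of 33 bases. The 2 copies of Ccnb1 lay 32 bases apart, at 99 and 67 bases before the start, and so did the pair nearest to the start of Cdk1, at 80 and 48 bases. In Cdkn3 the steps were wider, 57, 58 and 43 bases. TTTGAA was found in Ccnb2, Cdk1 and Cdkn3, against 17.9% of all windows, and not in the window of Ccnb1. No other form of the CHR was searched, so its absence from the Ccnb1 window is not shown. Cdk1 had copies beginning 71 and 15 bases before the start, and Ccnb2 had copies beginning 167 bases before it and 4 bases after it. The copy of Cdkn3 lay on the other strand, 111 bases before the start. Windows with at least 2 CCAAT and a TTTGAA made up 2.09% of the table, and 3 of the 4 windows shown here were of this kind. No match overlaps another. These matches describe the letters of the windows and are not shown to be bound sites.

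**Figure D1:**
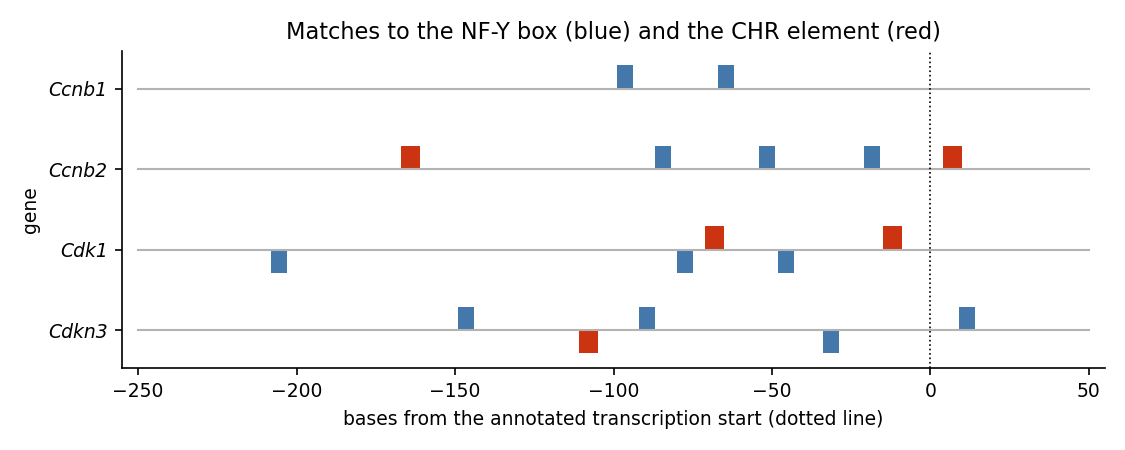
Position of matches in the promoter windows of Ccnb1, Ccnb2, Cdk1 and Cdkn3, in bases from the annotated start. Blue bars are matches to the NF-Y box (CCAAT) and red bars matches to the CHR element (TTTGAA only). Bars are drawn above the line on the strand of the gene and below it on the other strand. The 3 blue bars of Ccnb2 are evenly spaced, 33 bases apart.

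Both D-type cyclins were listed as higher in NPC, and Ccnd2 rose by a test that survives adjustment. Ccnd1, whose product is cyclin D1, was at 339.8 RPKM with ethanol and 548.8 RPKM with 4-OHT in the authors' deposited table. This is a 1.62-fold higher level. Its log2 fold change of 0.69 has a deposited p-value of 0.00355 in the authors' deposited table. Ccnd2, which encodes cyclin D2, was at 144 RPKM with ethanol and 284 RPKM with 4-OHT in the authors' deposited table, a 1.97-fold higher level. The change of Ccnd2 is 0.98 on the log2 scale, with a p-value of 2.64e-06, in the authors' deposited table. Both genes were thus higher with 4-OHT, and the less abundant one changed by the larger factor.

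These p-values carry no adjustment, and the number of genes tested is not given in the sources used here. With each of the 55341 annotated gene names taken as a test, the Benjamini-Hochberg adjusted p can be at most 0.00016 for Ccnd2 and 0.103 for Ccnd1. Ccnd2 thus passes an adjusted p of 0.05 for any smaller number of tests too, while for Ccnd1 this is not certain. A standard error derived from each deposited p-value gives 95% intervals of 0.57 to 1.38 for the log2 fold change of Ccnd2 and 0.23 to 1.16 for that of Ccnd1. The difference of the 2 changes, Ccnd1 minus Ccnd2, was -0.29 with an interval from -0.90 to 0.33. This interval, like those below for other pairs of genes, takes the errors of the genes as independent. The genes were measured in the same libraries, so this may not hold. The data do not resolve whether the pair rose by the same factor.

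Every mitotic gene of the group fell in NPC. Ccna2, encoding cyclin A2, was at 104.9 RPKM with ethanol and 59.1 RPKM with 4-OHT in the authors' deposited table, 43.6% lower. Its log2 fold change is -0.83 with a p-value of 2.34e-07 in the authors' deposited table. The cyclin B1 gene Ccnb1 had 64.1 RPKM with ethanol and 39.8 RPKM with 4-OHT in the authors' deposited table, and its log2 fold change of -0.69 was the smallest of the 5. For Ccnb2, the gene of cyclin B2, the authors' deposited table has 32.0 RPKM with ethanol, 17.4 RPKM with 4-OHT and a log2 fold change of -0.88. Ccnb1 stood above Ccnb2 in both arms, by a factor of 2.0 with ethanol and 2.29 with 4-OHT, and both genes lost between 38.0% and 45.8% of their RPKM.

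Cdk1, the catalytic partner of the B-type cyclins, was at 75.2 RPKM with ethanol and 43.8 RPKM with 4-OHT in the authors' deposited table. Its log2 fold change is -0.78 with a p-value of 1.07e-08 in the authors' deposited table. Kinase and cyclins fell nearly in step: the log2 fold changes of Ccna2, Ccnb1 and Ccnb2 minus that of Cdk1 were -0.05, 0.09 and -0.10. The 3 intervals of these differences, from -0.46 to 0.36, from -0.29 to 0.47 and from -0.50 to 0.29, all include 0. Smaller differences in fold than these limits would not be seen.

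Cdkn3 encodes a dual-specificity phosphatase that removes the activating phosphate of cyclin-dependent kinases. It had the largest change of the 7 genes in NPC: the authors' deposited table has it at 15.0 RPKM with ethanol and at 5.59 RPKM with 4-OHT, 62.7% lower. The log2 fold change of -1.42 has a p-value of 2.15e-11 in the authors' deposited table, and its derived interval runs from -1.84 to -1.01. The change of Cdk1 minus that of Cdkn3 was 0.64 with an interval from 0.15 to 1.14, which does not include 0 if the errors of the genes are independent. Only 3.91% of the 1049 genes listed as lower had a larger fall than Cdkn3. For Ccnb2, Ccna2, Cdk1 and Ccnb1 the shares with a larger fall were 30.6%, 39.1%, 48.3% and 69.9%. The adjusted p was at most 2.46e-05 for each of the 5 mitotic genes.

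**Figure D2:**
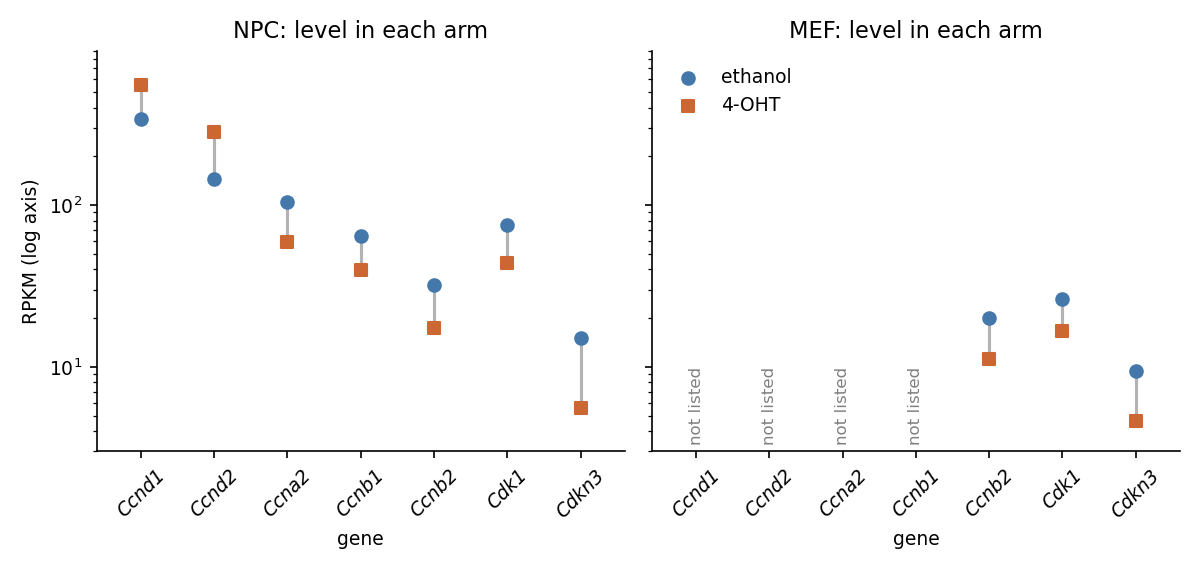
RPKM of the 7 genes on a log axis in NPC (left) and MEF (right), with circles for ethanol and squares for 4-OHT, each 1 deposited value for 3 libraries. In NPC the squares lie above the circles for Ccnd1 and Ccnd2 and below them for the other 5 genes, and 4 genes are not listed in MEF.

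Of the 7 genes, 5 were lower and 2 higher in NPC. Of all rows listed in NPC 43.4% were lower and 56.6% higher, and the listed rows amount to 4.37% of the gene names of the annotation. These names include pseudogenes and antisense genes, and how many genes were expressed is not known. Among expressed genes only, the share listed would be higher, here and wherever it is given below. The 7 genes were chosen with these results known, so their number among the listed genes is no result. The median log2 fold change was 1.00 among genes listed as higher and -0.77 among genes listed as lower. The change of Ccnd2 was close to the first of these medians and that of Cdk1 to the second. Among rows that reach 5 RPKM in 1 of the arms the medians were 0.81 and -0.76, and Ccnd2 lay above the first. Ccnd1 lay lower in its class, with 83.2% of the genes listed as higher, at any level, changed by more.

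In level the D-type cyclins stood apart from most listed genes. Ccnd1 ranked 6th among the 2416 rows with ethanol and 2nd with 4-OHT, and Ccnd2 went from rank 33 to rank 7. The mitotic genes moved the other way, Ccna2 from rank 56 to 100, Cdk1 from 101 to 147, Ccnb1 from 123 to 167, Ccnb2 from 260 to 411 and Cdkn3 from 535 to 977. All ranked rows changed by at least 1.5-fold, so these shifts largely restate the direction of each change. The order of the 7 genes by RPKM was the same in both arms, Ccnd1 first, then Ccnd2, Ccna2, Cdk1, Ccnb1, Ccnb2 and Cdkn3. Without values per library, whether neighbours in that order differ beyond their spread was not tested.

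**Figure D3:**
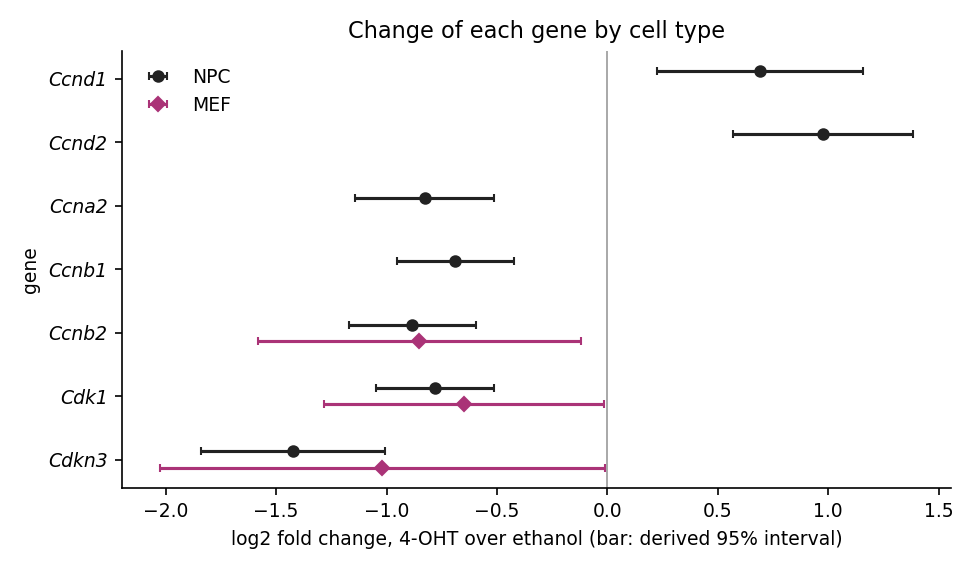
Log2 fold change of 4-OHT over ethanol for each gene in NPC (circles) and MEF (diamonds), with 95% intervals derived from the deposited p-values. The NPC intervals of Ccnd1 and Ccnd2 lie above 0 and those of the 5 mitotic genes below 0, and the MEF intervals are wider.

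The opposite changes altered the balance of the classes. The summed level of Ccnd1 and Ccnd2 was 484 RPKM with ethanol and 832 RPKM with 4-OHT in NPC, while that of Ccna2, Ccnb1 and Ccnb2 was 201 and 116 RPKM. D-type cyclins thus made up 70.6% of the summed RPKM of these 5 cyclins with ethanol and 87.7% with 4-OHT. Their ratio to the mitotic cyclins went from 2.41 to 7.16, a factor of 2.97. With each cyclin left out in turn the factor was between 2.79 and 3.40, and from the mean log2 fold changes of each class it was 3.10. Every cyclin summed had changed in the direction of its class, so these alternatives could not reverse the shift. Ccnd3 is not listed and is not in the sums. No test was run on these sums, since the genes were chosen with their changes known.

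**Figure D4:**
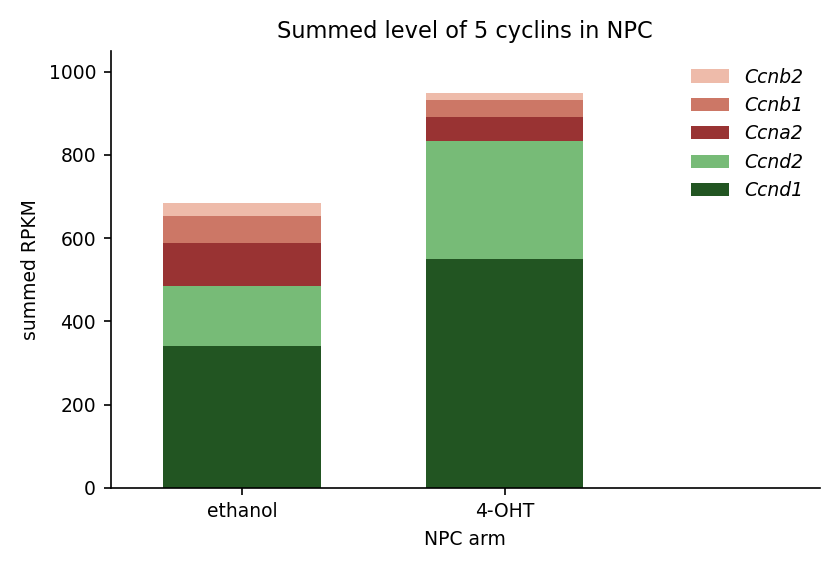
Stacked RPKM of 5 cyclins in NPC with ethanol and with 4-OHT, D-type cyclins in green and mitotic cyclins in red. The green part grows from 484 to 832 RPKM and the red part shrinks from 201 to 116 RPKM.

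The kinase that D-type cyclins activate did not follow them. Cdk4 was at 389 RPKM with ethanol and 253 RPKM with 4-OHT in the authors' deposited table, a log2 fold change of -0.62. The ratio of Ccnd1 to Cdk4 went from 0.873 to 2.17 and that of Ccnd2 to Cdk4 from 0.370 to 1.12. The change of Ccnd1 minus that of Cdk4 was 1.31 on the log2 scale, with an interval from 0.76 to 1.86, and that of Ccnd2 minus Cdk4 was 1.60, from 1.09 to 2.10. Cdk6 and Ccnd3, the remaining genes of this class, are not listed in either cell type. Cdk2, the partner of cyclins A and E, fell as well, and the authors' deposited table has it at 32.1 RPKM with ethanol and 19.1 RPKM with 4-OHT. Of 17 other kinase genes 4 were listed, 2 higher and 2 lower, beside 4.37% of all annotated gene names listed. Cdk17, a kinase outside the core cycle machinery, rose, and the authors' deposited table has it at 24.7 RPKM with ethanol and 42.0 RPKM with 4-OHT. The ratio of Ccna2 to Cdk2 barely moved, with Ccna2 over Cdk2 at 3.27 with ethanol and 3.09 with 4-OHT.

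Around the 7 genes, 8 lists of the cyclin pathway with 140 other genes were examined. Of these, 34 were listed in NPC, 9 higher and 25 lower, with a median log2 fold change of -0.68, beside 43.4% lower and a median of 0.66 over all listed rows. In the range of these genes' levels the background differs: of the 1168 rows that reach 5 RPKM in 1 of the arms, 707 were lower, and their median was -0.64. The adjusted p was certain to be under 0.05 for 29 of the 34, and not for Fbxo4, Cdk18, Ccna1, Pkmyt1 and Cdkn1c. The G1/S cyclin gene Ccne2 fell, with 17.7 RPKM in ethanol and 9.15 RPKM in 4-OHT according to the authors' deposited table. Ccng1, a p53 target that encodes cyclin G1, rose to 224 RPKM from 92.2 RPKM, by the authors' deposited table.

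Kinase subunits and switching enzymes were lower and 2 inhibitor genes higher. As background, 4.37% of all annotated gene names were listed in NPC, a share that would be higher among expressed genes only. Of the listed rows 43.4% were lower, and of the 1168 rows that reach 5 RPKM in 1 of the arms 707 were lower. Of 13 genes for kinase subunits and for enzymes that switch the kinases, 9 were listed and all 9 were lower. Among them were Cks1b and Cks2, small kinase-binding subunits, the mitotic kinase gene Plk1 and its activator Bora, and for these the authors' deposited table gives log2 fold changes of -0.83, -0.79, -0.79 and -0.79. Pkmyt1, whose product holds CDK1 inactive, had -1.03, and the activating phosphatase gene Cdc25b -0.75 in the authors' deposited table. Of 7 inhibitor genes 3 were listed. Cdkn1a, encoding p21, rose, and the authors' deposited table has it at 65.1 RPKM with ethanol and 216 RPKM with 4-OHT. Cdkn2b, encoding an inhibitor of CDK4 and CDK6, stood at 2.31 and 4.57 RPKM, and Cdkn1c at 1.42 and 0.922 RPKM, by the authors' deposited table.

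The transcription factors of the cycle were mostly lower where listed. The counts below stand beside 4.37% of gene names listed and 43.4% of listed rows lower, or 707 of the 1168 rows that reach 5 RPKM. Of 13 genes of the retinoblastoma and E2F families 4 were listed, all lower: the repressor genes E2f7 and E2f8 by -1.11 and -0.92 and E2f1 and Rbl1 by -0.66 and -0.64 on the log2 scale of the authors' deposited table. Mybl2 and Foxm1, which activate the late genes, had -1.04 and -0.61, and Mybl1 had 0.72 in the authors' deposited table. The row of Foxm1 joins it with an overlapping gene. For cyclin turnover, 6 of 26 genes were listed and 5 were lower. These were Fbxo5, an inhibitor of the anaphase-promoting complex (-0.98), Skp2 (-0.83), the ubiquitin-conjugating enzyme genes Ube2c (-0.70) and Ube2s (-0.69) and Anapc5 (-0.65), with log2 values from the authors' deposited table. The exception was Fbxo4, whose product has been linked to cyclin D1 turnover, which the authors' deposited table has at 1.07 RPKM with ethanol and 1.66 RPKM with 4-OHT.

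Upstream of the D-type cyclins, 2 of 32 genes of growth factor, MAP kinase and Wnt signalling were listed, both higher. Over all annotated gene names 4.37% were listed, and 56.6% of the listed rows were higher, so this small count is no result about the pathway. The authors' deposited table has the immediate early gene Fos at 4.08 RPKM with ethanol and 8.79 RPKM with 4-OHT, and the FGF receptor gene Fgfr2 at 2.37 and 3.87 RPKM. The other 30, with Myc, Mycn, Egfr and Ctnnb1 among them, are not listed, so their changes are unknown.

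**Figure D5:**
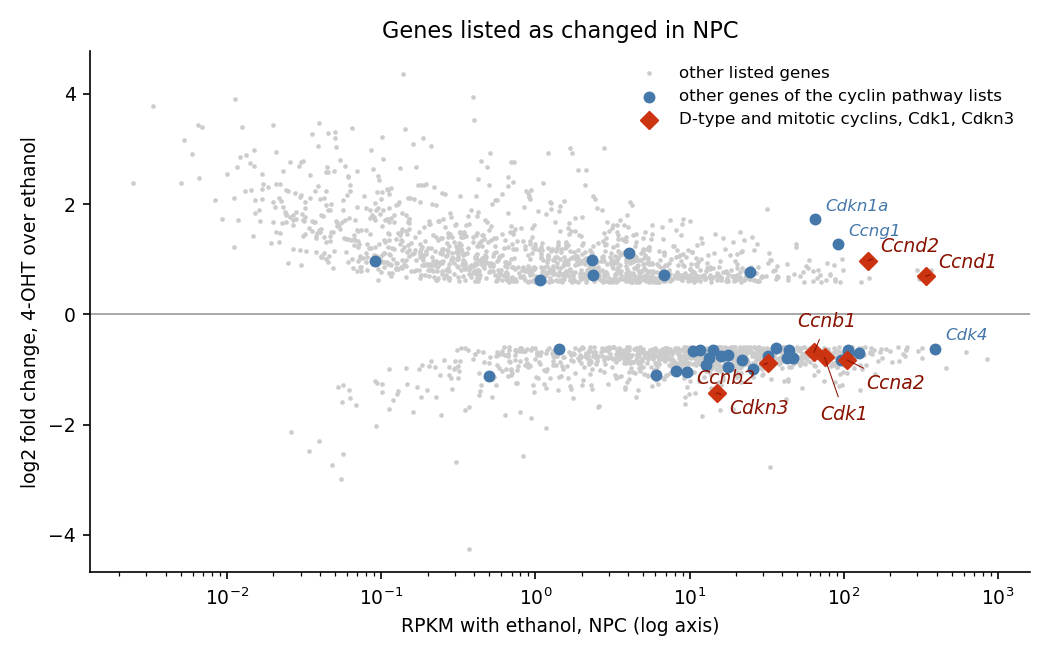
Log2 fold change of 4-OHT over ethanol against RPKM with ethanol (log axis) for genes listed in NPC with a level above 0 in ethanol. Diamonds are the 7 genes, blue points other genes of the cyclin pathway lists and grey points the remaining rows. Ccnd1 and Ccnd2 stand at the right end above 0, near Ccng1, and Cdk4 at the right end below 0.

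A single progenitor marker and several glial markers moved beside these changes in NPC. Hes5, a Notch target of neural progenitors, fell, and the authors' deposited table has it at 15.8 RPKM with ethanol and 4.77 RPKM with 4-OHT. The other 9 progenitor markers are not listed. Of 10 glial markers 7 were listed, all higher, with a summed level of 76.5 RPKM with ethanol and 144 RPKM with 4-OHT, most of it Aldh1l1, and of 10 neuron markers 4 were listed, 3 of them higher, with 7.13 and 12.2 RPKM. Of 10 immune and 10 endothelial markers 2 and 2 were listed, all higher, with 0.894 and 2.0 RPKM and with 0.146 and 0.258 RPKM. These counts stand beside 4.37% of the annotated gene names listed and 56.6% of the listed rows higher. Among expressed genes only, the share listed would be higher. The adjusted p was certain to be under 0.05 for Hes5, for all 7 glial markers, for 2 of the 4 neuron markers, 1 of the 2 immune markers and 0 of the 2 endothelial markers. No listed marker was at 0 in either arm. The part of these cells in the changes of the cyclins was not tested. In such bulk samples fewer cycling cells and less RNA per cycling cell cannot be told apart.

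In MEF the 3 listed genes were lower with 4-OHT, as in NPC. Cdk1 had 26.3 RPKM with ethanol and 16.7 RPKM with 4-OHT in the authors' deposited table, with a log2 fold change of -0.65 and a p-value of 0.0440. The authors' deposited table has Ccnb2 at 20.1 RPKM and 11.1 RPKM, with a log2 fold change of -0.85 and a p-value of 0.0224. Cdkn3 stood at 9.40 RPKM with ethanol and 4.64 RPKM with 4-OHT in the authors' deposited table, where its log2 fold change is -1.02 and its p-value 0.0472. Of all rows listed in MEF 49.5% were lower and 50.5% higher, and the rows amount to 0.201% of the gene names of the annotation. With each annotated gene name taken as a test the adjusted p could be as high as 1 for each of the 3 genes, so none is certain to pass adjustment. The derived intervals were wide, from -1.58 to -0.12 for Ccnb2, from -1.28 to -0.02 for Cdk1 and from -2.03 to -0.01 for Cdkn3.

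Cdkn3 had the largest fall of the 3 in both cell types, and Cdk1 the smallest, but in MEF this order is not resolved: the change of Cdk1 minus that of Cdkn3 was 0.37 there, with an interval from -0.82 to 1.56. The change in NPC minus that in MEF was -0.03 for Ccnb2 with an interval from -0.82 to 0.75, -0.13 for Cdk1 from -0.82 to 0.56, and -0.40 for Cdkn3 from -1.49 to 0.69. None passed the test of the difference, a two-sided z test with Benjamini-Hochberg adjustment over the 49 genes listed in both cell types, in which each had an adjusted p of 0.989. Of the 49, 9 genes passed. Only genes with a p-value under 0.05 and a change of at least 1.5-fold in both cell types entered. Genes with a small change in either were thus left out beforehand, which limits what the test can find. The intervals leave room for sizeable differences, and these values do not show equal changes. Levels of the 3 genes were higher in NPC in both arms, with ethanol 2.86-fold for Cdk1, 1.59-fold for Ccnb2 and 1.59-fold for Cdkn3, although the 2 tables may have been normalized separately.

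Of the 140 pathway genes, Mybl2, Ube2c and Fbxo5 were listed in MEF, all 3 lower, at -0.98, -0.82 and -0.86 on the log2 scale of the authors' deposited table. All 3 are also lower in NPC. Over all annotated gene names 0.201% were listed in MEF, and 49.5% of the listed rows were lower. The absence of Ccnd1, Ccnd2, Ccna2 and Ccnb1 from the MEF table means that they had a p-value above the limit, changed less than 1.5-fold or were not tested, and whether their changes differ between the cell types was not tested.

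The genes nearest to each member in NPC were found among 2399 listed genes by the distance in log2 fold change and log2 RPKM with ethanol. As it rests on these 2 values of a gene, this is a description. Cdk1 lay closest to the condensin gene Ncapd2, the replicative helicase gene Mcm5 and the mitotic complex gene Cdca8, at distances of 0.0144, 0.0188 and 0.0719. For Ccna2 the nearest were Kpna2, Dctpp1 and Cks1b, for Ccnb1 Mpdu1, Tacc3 and Tead2, for Ccnb2 Dut and Uck2, and for Cdkn3 Recql, the joint row of Galr3 and Gcat, and Mxd3. Ccnd1 had Cd81, Igfbp2 and Mt3 as neighbours, at distances between 0.153 and 0.215. Ccnd2 had none as near, with Igfbp3, Spna2 and Ctsd at 0.320 to 0.568. For genes listed in both cell types the distance took the same 2 values from each cell type, among 46 other genes. Tacc3, Mcm3 and Cdca3 were nearest to Cdk1 (0.300 to 0.422), and Mad2l1, Tk1 and Cenpa to Ccnb2 (0.555 to 0.916). Fbxo5, Melk and Pold1 were nearest to Cdkn3 (0.917 to 1.11).

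The splicing tables list 255 events in NPC and 71 in MEF, and 0 of these are in the 7 genes. In the pathway lists, 6 of the 255 NPC events fell in 4 of the 140 genes. The share of all genes with an event was not computed, so these counts are no result about the 7 genes or the pathway. The cyclin L genes, whose products act with kinases of the splicing machinery, both had events. For Ccnl1 the longer form of a 147 bp exon, at 65759052 to 65759198 of chromosome 3 in mm9, had an inclusion level of 0.227 ± 0.066 (SD, n = 2) in the control libraries, which rested with those of 4-OHT on 44 to 56 reads each. With 4-OHT the level was 0.539 ± 0.095 (SD, n = 2). A 126 bp exon of Ccnl2, at 155192648 to 155192773 of chromosome 4, went from 0.427 ± 0.033 to 0.755 ± 0.069 (SD, n = 2 each), and 2 more events of Ccnl2 overlap it. The longer form of an exon of Ccnt2, the cyclin of a transcription elongation kinase, went from 0.448 ± 0.018 to 0.726 ± 0.022 (SD, n = 2 each), at 129694418 to 129694773 of chromosome 1. Fbxw7 encodes the ubiquitin ligase subunit that recognises cyclin E. Its 64 bp exon at 84668059 to 84668122 of chromosome 3 went from 0.060 ± 0.049 to 0.756 ± 0.346 (SD, n = 2 each) and rests on 10 to 21 reads a library. In MEF the 2 events, both of Tcf7l2, rest on 3 to 31 reads a library. These events of the pathway lists were deposited for 2 of the 3 pairs of libraries, chosen by the authors for their difference, so no test was run. None of these genes is among those listed as changed in expression.

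Some reads may be shared with other genes. By the annotation Ccnd1 overlaps LTO1, Ccnd2 overlaps 2 antisense genes and Ccna2 overlaps Exosc9, each on the other strand, and the sources used here do not state that strand was kept. Ccnb1 and Ccnb2 have processed pseudogenes, Ccnb1-ps and Ccnb2-ps, between which and the genes reads could be split.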

How the data were processed

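Expression was measured by RNA sequencing in 12 libraries, 3 for each arm of NPC and MEF. Per the labels, libraries were made with Illumina TruSeq v2 from total RNA; whether replicates were separate cultures is not stated, so the authors' p-values may measure technical spread only. Per the submitters' processing notes, reads were processed with CASAVA 1.8, TopHat2 2.03 and Bowtie2 2.0.0.6 on mm9, and compared with Cuffdiff 2.02. The deposited expression tables hold, per the file headers, 1 RPKM value an arm, the log2 ratio of 4-OHT to ethanol and an unadjusted p-value. Every listed row has a p-value under 0.05 and a change of at least 1.5-fold, as deposited by the authors. Per the file headers, the splicing tables give the count of inclusion and exclusion reads and the inclusion level as a fraction, for 1 library of each arm per row, under pair codes that match no label.

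Members and gene lists were chosen with earlier results of these data known. All 7 members are named. In a list the genes named are up to 6 with the largest change at 1 RPKM or more, and any listed in MEF. The nearest 3 genes to a member were also named, except 1 that is not reported here. The row 6720463M24Rik was read as Bora and the joint row with 4933413G19Rik as Foxm1. Standard errors are the absolute log2 fold change over the normal quantile of the deposited p-value, with p-values under 2.3e-16 set to that value. They carry the spread as Cuffdiff modelled it. For a difference between genes or between cell types the errors were combined as independent. Computation used Python 3.11.15, pandas 2.3.3 and scipy 1.17.1, and the tests were tested on simulated data. For the test between cell types the simulated data did not apply the limits on listing. The planned permutation test of inclusion levels needs events in 3 pairs, and the lists had 0 such events. Alternatives were pseudocounts of 0.1 and 1, another distribution for the standard error, stricter limits on listing, a minimum of 20 reads, and each cyclin or pair left out.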

Additional observations from a re-analysis of the deposited data

How the results depend on the processing

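Recomputing from RPKM, or adding a pseudocount of 0.1 or 1 to both arms, cannot reverse the direction of a change. All 30 such values of the 7 genes therefore kept it, and the largest shift was 0.14 on the log2 scale. The 9 genes that differed between cell types stayed 9 in number with a t distribution of 4 degrees of freedom. Counts moved where listing was made stricter, by construction. With a log2 fold change of 1 or more in size, 0 of the 2 higher and 1 of the 5 lower members remained in NPC and 1 of 3 in MEF, and of the pathway genes 3 higher and 4 lower in NPC and 0 in MEF. With the bound of the adjusted p under 0.05, 1 higher member (Ccnd2) remained in NPC, and 0 members and 0 pathway genes in MEF, where a deposited p under 0.01 also left 0 and 0. At 5 RPKM or more, 5 pathway genes were higher in NPC. With at least 20 reads in every library, 0 pathway events remained in MEF. With either pair left out, the change of the 126 bp Ccnl2 exon was between 0.256 and 0.399, and that of the Fbxw7 exon, 0.696 over both pairs, between 0.416 and 0.975. No paired analysis was possible because the expression tables hold 1 value per arm and the splicing events of the lists come from 2 pairs, whose values and within-pair range are given with no test. Depth is unknown, and the tables leave out every gene that was not called.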

Other observations

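Promoter windows of other genes listed in NPC were searched for the same letters, CCAAT and TTTGAA on both strands. At least 2 copies of CCAAT were found in 21.2% of 897 windows of genes listed as lower and in 10.6% of 1303 windows of genes listed as higher, against 11.7% of all windows. TTTGAA alone did not follow this order, with 17.5%, 11.6% and 17.9%. Both together were found in 5.35% of the windows of lower genes and 0.691% of those of higher genes, against 2.09% overall. Among the 20 windows of pathway genes listed as lower, 8 held at least 2 copies of CCAAT and 4 held both. The lower genes include the 4 genes whose windows are shown in the report, a gene can have several windows, and no test was run.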
